A study of Mus musculus with 6 samples.

Results

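The thrombospondins and other matricellular proteins are secreted proteins that sit in the extracellular matrix and act on cells more than they build fibres. They bind integrins, CD36, CD47, CD44 and growth factors, and through these they alter adhesion, migration, vessel growth and, in the brain, synapse formation. In neural tissue, thrombospondins are best known as astrocyte-secreted signals that promote synapses. The genes described here are 9 symbols chosen by name from a table of 24503: Thbs1, Thbs2, Thbs3 and Thbs4 (thrombospondins), Sparc, Spp1 (osteopontin) and Postn (periostin), Fn1 (fibronectin) and Ccdc80. They were chosen with the results of these libraries known, including the large differences of Thbs2 and Ccdc80 between genotypes. Their differences between genotypes are therefore given as a description, with no p-value, and counts of called members in that comparison support nothing.

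RNA-seq counts came from primary neural stem cells of the cortex of E13.5 mouse embryos, enriched as neurospheres and grown on laminin with FGF and EGF. Knockout cells (KO, n = 3 libraries) carried the Nestin-Cre transgene B6.Cg-Tg(Nes-cre)1Kln/J and Phf2 flox/flox alleles. Control cells (WT, n = 3) carried the Phf2 flox/flox alleles too, and are labelled wild type. Cre, expressed from Nestin sequences that are active in neural progenitors, is present in KO cells alone, so its own presence and the loss of Phf2, a histone H3 lysine 9 demethylase gene, cannot be told apart. The sources used here do not say whether libraries of a group came from separate embryos or cultures.

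Total counts ranged from 33413444 to 46890314 per library. Phf2 stood at 56.3, 48.1 and 48.8 CPM (counts scaled to the library total, TMM-adjusted) in KO 1, 2 and 3, against 109, 90.4 and 77.8 CPM in WT 1, 2 and 3. The KO values lay below all WT values, at 0.519, 0.532 and 0.627 of the WT level in numbers 1, 2 and 3. Phf2 was not called by edgeR's quasi-likelihood test on genotype alone (adjusted p = 0.182). It was called by that test with the replicate number as a block (adjusted p = 0.000123). Transcript from outside the floxed part may be counted as well, and counts per gene do not show how complete the deletion was. The 8 neural stem cell markers summed to 9168 to 10298 CPM in KO and 9254 to 10503 CPM in WT, with Vim at 4567 ± 445 CPM in KO and 4591 ± 523 CPM in WT and Sox2 at 537 ± 128 CPM in KO and 466 ± 105 CPM in WT (SD, n = 3 each). Prom1, which encodes the surface protein prominin-1, was the lowest of the 8, at 2.97 ± 0.389 CPM in KO and 7.54 ± 0.375 CPM in WT. The libraries numbered 1 stood apart from numbers 2 and 3 in both genotypes, and each result below is given with that split in view.

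Of the 9 genes, 8 had enough counts to be tested, and Postn did not. Postn, which encodes a matrix protein of fibroblasts and connective tissue, had 1 count in KO 3, 1 count in WT 3 and 0 in the other libraries. The limit that a count of 0 allows (3 counts per library) ranged from 0.064 to 0.0898 CPM, and the single counts lay below it, so no Postn level can be given at this depth.

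Levels of different genes were set side by side per kb of exon (CPM divided by the merged exon length in GENCODE). Sparc, a collagen-binding protein of remodelling tissue, was the highest in 6 of 6 libraries, at 172 ± 81.2 CPM per kb in KO and 223 ± 101 CPM per kb in WT (SD, n = 3 each). The next 4 genes changed places between libraries and could not be ordered beyond that spread. Among them Spp1 averaged 8.08 ± 5.87 CPM per kb in KO and 10.2 ± 6.79 CPM per kb in WT, and Thbs3 averaged 4.26 ± 1.84 CPM per kb in KO and 3.97 ± 1.41 CPM per kb in WT.

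Fn1 averaged 4.84 ± 1.33 CPM per kb in KO and 8.51 ± 3.48 CPM per kb in WT, and Ccdc80 averaged 2.65 ± 0.822 CPM per kb in KO and 8.55 ± 2.22 CPM per kb in WT. Thbs2 and Thbs1 came below them in all 6 libraries. Thbs2 was the higher of this pair in 5 of 6 libraries, and KO 1 was the exception. The Thbs2 level divided by the Thbs1 level, both per kb, was 0.309, 1.38 and 1.82 in KO 1, 2 and 3, against 1.15, 8.44 and 8.03 in WT 1, 2 and 3. Thbs4 averaged 0.171 ± 0.0735 CPM per kb in KO and 0.154 ± 0.0825 CPM per kb in WT.

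**Figure D1:**
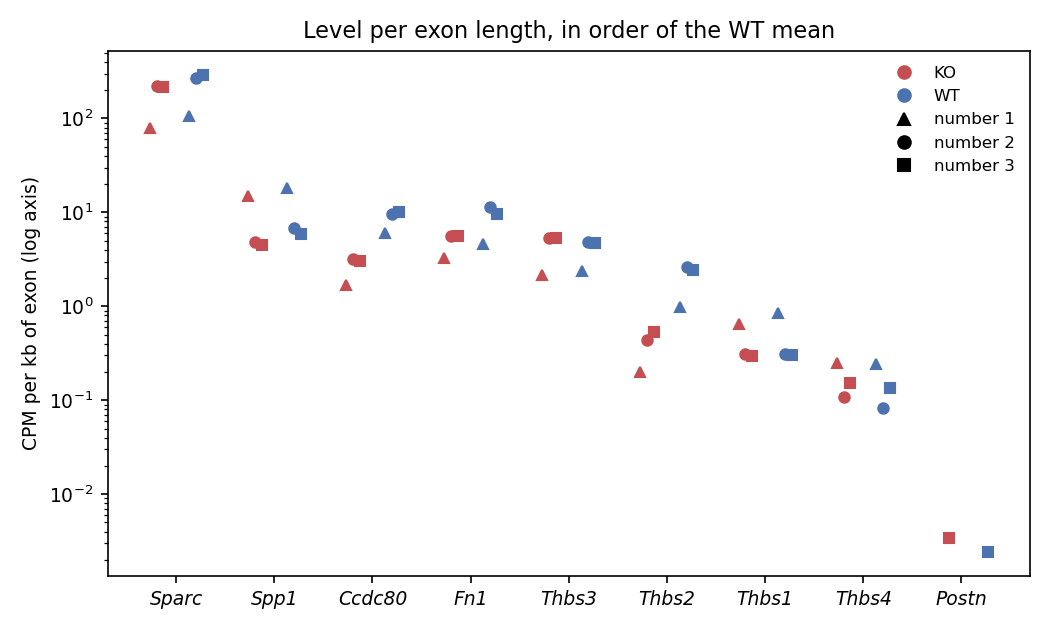
Level of each gene in every library as CPM per kb of merged exon, on a log axis, with genes in order of the WT mean. Red points are KO and blue points WT, the marker shape gives the library number, and libraries with 0 counts of Postn are not drawn. Sparc lies above all other genes in each library, and Postn appears in 2 libraries.

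Thbs2 was lower in KO cells, without overlap between the groups. Thbs2 (chromosome 17, 14665500 to 14694235, minus strand, GRCm38, up to 22 exons) encodes a secreted thrombospondin that inhibits vessel growth and binds CD36 and CD47. It had 57, 129 and 126 counts in KO 1, 2 and 3, against 318, 740 and 806 counts in WT 1, 2 and 3. These are 1.39, 3.04 and 3.75 CPM in KO 1, 2 and 3, against 6.91, 18.4 and 17.1 CPM in WT 1, 2 and 3. Number 1 was the lowest library of each genotype, yet the highest KO value lay below the lowest WT value. The KO level was 0.201, 0.166 and 0.219 of the WT level in numbers 1, 2 and 3. The log2 difference, KO minus WT, was −2.37 ± 0.508 (SE) without a block and −2.37 ± 0.128 with the replicate number as a block. In these bulk libraries, fewer cells that express a gene and less RNA per cell cannot be told apart.

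Ccdc80 also showed no overlap between the groups. It lies on chromosome 16 (45093402 to 45128077, plus strand) and encodes a secreted protein that binds matrix. It stood at 7.30, 13.6 and 13.2 CPM in KO 1, 2 and 3, against 25.8, 41.2 and 43.2 CPM in WT 1, 2 and 3. Its KO level was 0.283, 0.331 and 0.305 of the WT level in numbers 1, 2 and 3, a log2 difference of −1.69 ± 0.312 (SE) without the block and −1.71 ± 0.0840 with it. Thbs2 and Ccdc80 were the 2 of 8 tested members whose KO and WT libraries did not overlap, where 11.2% of all tested genes did not.

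Fn1 (chromosome 1, 71585520 to 71653200, minus strand), which encodes the fibre-forming ligand of integrin alpha-5 beta-1, was lower in KO than in WT within each library number. It stood at 38.7, 65.3 and 65.8 CPM in KO 1, 2 and 3, against 53.8, 132 and 113 CPM in WT 1, 2 and 3. The groups overlapped, because WT 1 lay below KO 2 and KO 3. The log2 difference was −0.81 ± 0.370 (SE) without the block and −0.76 ± 0.0944 with it. An antisense gene at its start, Apol7d, had a mean of 0 CPM in KO and 0.0568 CPM in WT.

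Sparc (chromosome 11, 55394500 to 55423183, minus strand) had a smaller difference. It stood at 296, 835 and 824 CPM in KO 1, 2 and 3, against 406, 1020 and 1110 CPM in WT 1, 2 and 3. KO was lower within each number, at 0.731, 0.818 and 0.742 of the WT level in numbers 1, 2 and 3, but the groups overlapped. The log2 difference was −0.38 ± 0.510 (SE) without the block and −0.39 ± 0.0684 with it.

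Spp1 (chromosome 5, 104435118 to 104441050, plus strand) encodes osteopontin, a ligand of integrins and CD44 that macrophages and bone cells also make. It stood at 24.5, 8.06 and 7.40 CPM in KO 1, 2 and 3, against 29.7, 11.1 and 9.66 CPM in WT 1, 2 and 3. KO was lower within each number, at 0.823, 0.726 and 0.766 of the WT level in numbers 1, 2 and 3, and the groups overlapped. The log2 difference was −0.34 ± 0.630 (SE) without the block and −0.37 ± 0.0923 with it.

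The other thrombospondin genes did not share the difference of Thbs2. Thbs1 (chromosome 2, 118111876 to 118127133, plus strand), which encodes the family member known to activate latent TGF-beta, stood at 3.89, 1.91 and 1.78 CPM in KO 1, 2 and 3, against 5.22, 1.88 and 1.84 CPM in WT 1, 2 and 3. In numbers 2 and 3 the genotypes lay close together, and in number 1 KO was lower. Its log2 difference was −0.24 ± 0.533 (SE) without the block and −0.18 ± 0.170 with it.

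Thbs3 (chromosome 3, 89215180 to 89226837, plus strand) encodes a thrombospondin of the pentameric subgroup and stood at 10.3, 25.4 and 25.9 CPM in KO 1, 2 and 3, against 11.3, 23.5 and 22.6 CPM in WT 1, 2 and 3. The groups overlapped, and the log2 difference was 0.10 ± 0.430 (SE) without the block and 0.06 ± 0.0913 with it. Thbs3 lies within the span of the opposite-strand gene Mtx1, at 45.5 CPM in KO and 45.9 CPM in WT (means), and no strand setting is given for the counting, so reads of the pair may not be fully told apart. Thbs4 (chromosome 13, 92751590 to 92794818, minus strand), of the same subgroup, had 34, 15 and 17 counts in KO 1, 2 and 3, against 37, 11 and 21 counts in WT 1, 2 and 3. Its log2 difference of 0.14 ± 0.523 (SE) without the block and 0.16 ± 0.318 with it leaves a wide range of changes possible in either direction.

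**Figure D2:**
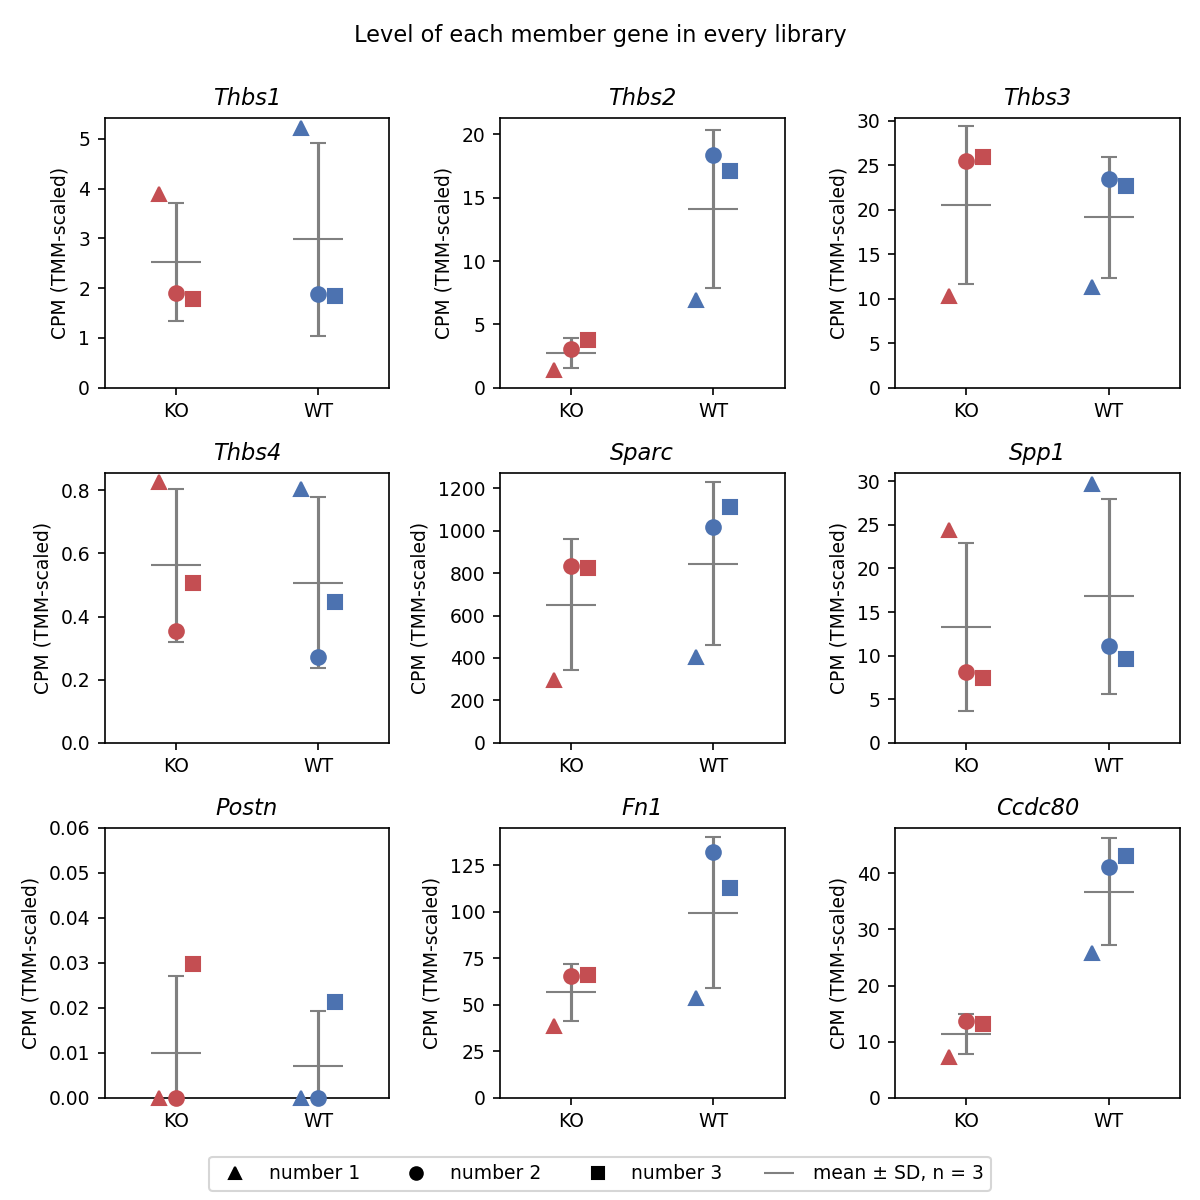
CPM of each gene in every library, KO on the left and WT on the right of each panel, with the marker shape for the library number and the grey bar for mean ± SD (n = 3). The highest KO value of Thbs2, 3.75 CPM, lies below the lowest WT value, 6.91 CPM, while the triangles of number 1 stand apart in both genotypes for most genes.

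Across all genes, 8 of 13683 (0.0585%) were called by the unblocked quasi-likelihood test of edgeR (Benjamini-Hochberg adjusted p under 0.05). None of the 8 tested members was among them, with 2 at an unadjusted p under 0.05, and DESeq2 called 2 members, Thbs2 and Ccdc80, where it called 1.91% of all genes. With the replicate number as a block, edgeR called 5 members, Thbs2, Ccdc80, Fn1, Sparc and Spp1, all lower in KO, where it called 9.79% of all genes and 6.46% lower. Nothing is read from these counts, since the members were chosen with this comparison known. The median log2 difference of the 8 members was −0.38 with the block, beside 0.01 over all tested genes.

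Which members were called depended on the libraries. Thbs2, Ccdc80 and Fn1 were called in 8 of 8 fits with a block, Sparc in 7 and Spp1 in 4. Of all genes, these fits called 9.79% (edgeR), 9.27% (DESeq2), 9.57% (upper-quartile scaling), 10.6% (number 1 as the block), 7.53%, 9.07% and 10.6% (without number 1, 2 or 3) and 4.94% (KO 2 and KO 3 summed). In numbers 2 and 3 alone, without a block, Thbs2, Ccdc80, Fn1 and Sparc were called, where 5.4% of all genes were. The fit with KO 2 and KO 3 summed as 1 library, which has number 1 as the block, called the same 4.

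**Figure D3:**
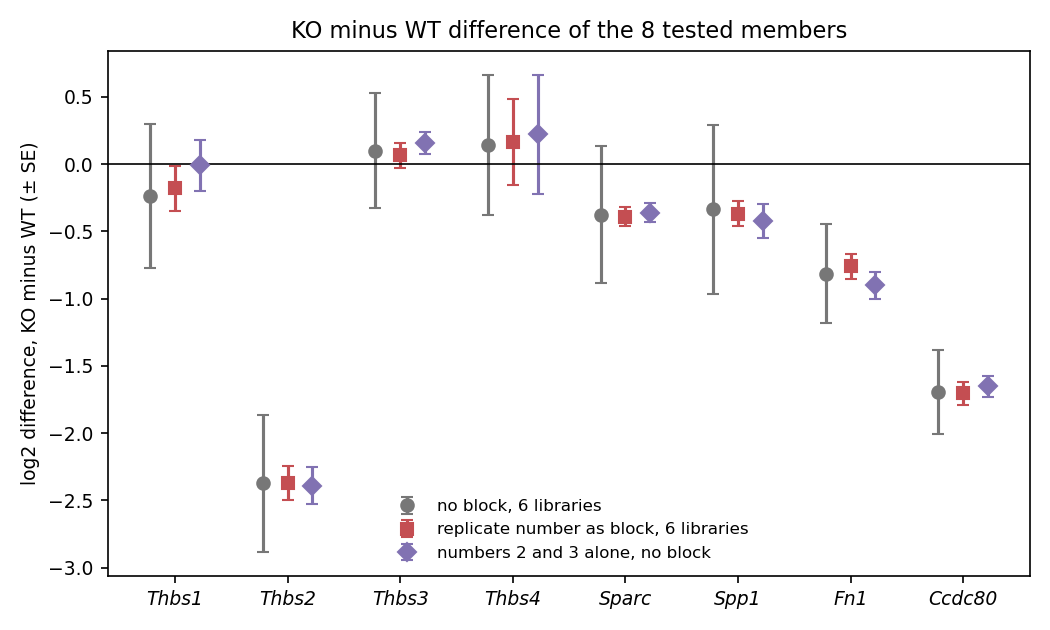
Log2 difference, KO minus WT, of the 8 tested genes with bars of ± SE. Grey circles are the unblocked fit, red squares the fit with the replicate number as block, and purple diamonds numbers 2 and 3 alone. The Thbs2 estimates lie near −2.4 and the Ccdc80 estimates near −1.7 in all 3 fits. The bars of the unblocked fit of all 6 libraries are wider than those of the fit with the block.

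Because 3 of the members with a block call have a promoter in the RefSeq table (build GRCm38.p6), these are shown for the sequence before their RefSeq starts. Each is the 250 bases before the start, 5′ to 3′ on the gene's strand, and capitals mark matches to the motifs named below. Thbs2 is chr17:14694263-14694512 (minus strand), Sparc is chr11:55420081-55420330 (minus strand) and Spp1 is the first of 2 entries, chr5:104434861-104435110 (plus strand). The Sparc window lies inside the GENCODE span given above, which begins at 55423183 on the minus strand, so the 2 sources place its start differently.
Thbs2: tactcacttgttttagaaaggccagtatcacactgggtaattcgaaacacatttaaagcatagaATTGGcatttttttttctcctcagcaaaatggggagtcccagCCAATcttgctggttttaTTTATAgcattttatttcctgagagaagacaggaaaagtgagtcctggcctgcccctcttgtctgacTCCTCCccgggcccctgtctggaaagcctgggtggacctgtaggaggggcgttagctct
Sparc: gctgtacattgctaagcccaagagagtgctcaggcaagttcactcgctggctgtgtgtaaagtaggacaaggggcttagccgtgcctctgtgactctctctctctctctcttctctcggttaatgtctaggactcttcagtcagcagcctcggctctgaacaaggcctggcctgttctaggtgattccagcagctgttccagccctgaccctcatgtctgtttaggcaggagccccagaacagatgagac
Spp1: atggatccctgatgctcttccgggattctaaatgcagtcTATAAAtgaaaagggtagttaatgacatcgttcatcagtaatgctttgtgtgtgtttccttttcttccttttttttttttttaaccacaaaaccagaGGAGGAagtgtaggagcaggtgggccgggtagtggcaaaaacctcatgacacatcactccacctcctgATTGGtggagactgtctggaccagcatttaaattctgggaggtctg

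The 300-base windows (250 before and 50 after the start) were searched on both strands for 7 motifs. TATAAA (the TATA box sequence) was present in 13.6% of 32851 promoters of this length, CCAAT in 37.4% and GGAGGA in 34.5%. GGGCGG (the GC box sequence) was present in 35.7%, GGAATG in 14.7%, TGANTCA in 7.81% and CACGTG in 7.15%. Matches were taken by sequence alone, at any position, so a TATAAA match need not be a working TATA box. The Thbs2 window held CCAAT from −144 to −140 and, on the opposite strand, from −186 to −182. It held TATAAA on the opposite strand from −126 to −121, and GGAGGA on the opposite strand from −59 to −54. The Spp1 window held TATAAA from −211 to −206, GGAGGA from −114 to −109 and CCAAT on the opposite strand from −46 to −42. No match overlapped another in these windows, and the Sparc window held none of the 7. The windows had 4 CpG dinucleotides in Thbs2, 4 in Sparc and 3 in Spp1, where the median promoter had 7. Thbs1, Fn1 and Ccdc80 had no entry. The same motifs were found in members without a block call, with CCAAT in Thbs3, GGAGGA in Thbs4 and CCAAT and TATAAA in Postn. The second Spp1 entry held none of the 7. The motifs therefore do not set apart the members that were lower in KO.

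The libraries numbered 1 differed from numbers 2 and 3 in opposite directions among these genes. This contrast, with genotype as a covariate, did not choose the members, but number 1 was seen to stand apart in these libraries before the test. Its p-values, here and for the marker lists, are therefore descriptions and do not support the split itself. They are from edgeR's quasi-likelihood test adjusted over 13683 genes by Benjamini-Hochberg. Thbs1, Spp1 and Thbs4 were higher in number 1, and Sparc, Thbs2, Thbs3, Fn1 and Ccdc80 were lower. All 8 tested members passed, where 57.6% of all tested genes did, 28.2% higher and 29.4% lower, so passing is common here and the split by gene is the description. The labels do not say what the libraries numbered 1 share, and number 1 is a single library per genotype.

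Spp1 had the largest increase of the 8, a log2 difference of 1.59 ± 0.0909 (SE, adjusted p = 3.33e-06, edgeR), with number 1 at 3.17 times the mean of numbers 2 and 3 in KO and 2.86 times in WT. Thbs1 was higher by 1.29 ± 0.152 (adjusted p = 0.000133, edgeR), at 2.11 times in KO and 2.80 times in WT. Thbs4 was higher by 1.05 ± 0.311 (adjusted p = 0.0180, edgeR), at 1.93 times in KO and 2.24 times in WT, on at most 37 counts per library. Thbs4 lost the call when KO 1, KO 2 or WT 1 was left out, with differences of 1.14, 0.983 and 0.978, and the other 7 kept theirs whichever library was left out.

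Among the lower genes, Sparc had the largest decrease, a log2 difference of −1.44 ± 0.0679 (SE, adjusted p = 1.33e-06, edgeR), with number 1 at 0.357 of the mean of numbers 2 and 3 in KO and 0.381 in WT. Thbs2 had −1.33 ± 0.128 (adjusted p = 4.39e-05, edgeR), at 0.409 in KO and 0.390 in WT. Thbs3 had −1.17 ± 0.0927 (adjusted p = 1.68e-05, edgeR), at 0.401 in KO and 0.491 in WT. Fn1 had −0.97 ± 0.107 and Ccdc80 −0.78 ± 0.0794 (adjusted p = 9.24e-05 and 5.92e-05, edgeR). For each of the 8 genes, number 1 differed in the same direction in KO and in WT.

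**Figure D4:**
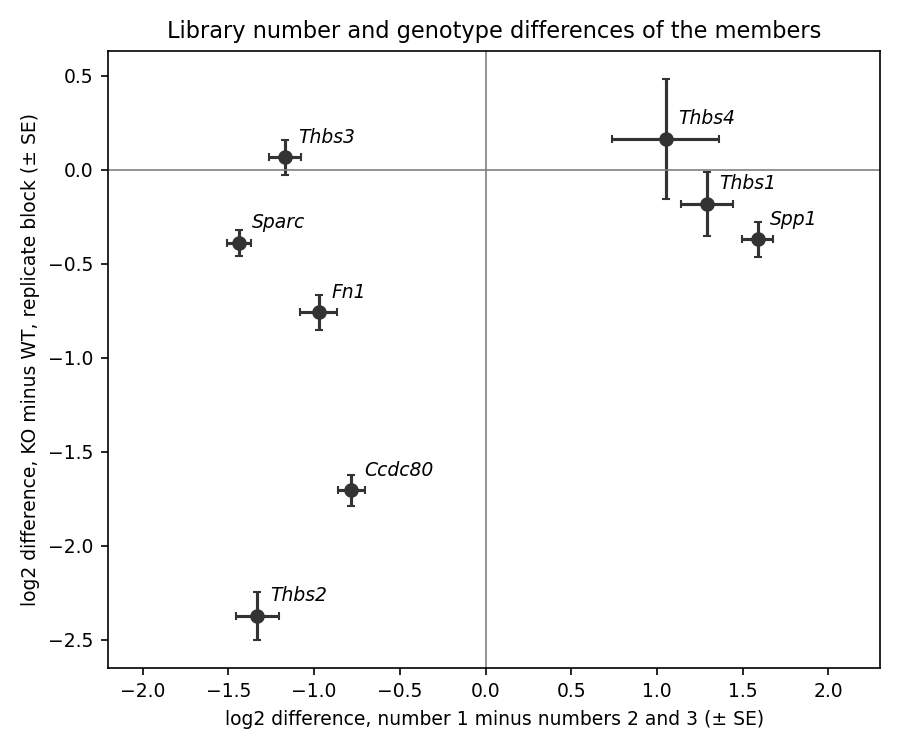
Log2 difference of number 1 minus numbers 2 and 3 (horizontal) against log2 difference of KO minus WT with the replicate block (vertical) for the 8 tested genes, with bars of ± SE. Thbs1, Thbs4 and Spp1 lie to the right of 0 and the other 5 to the left, and Thbs2 and Ccdc80 lie lowest.

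Whether the genotype difference itself differed between number 1 and the rest was tested as an interaction, which rests on 1 library per genotype in number 1. EdgeR called 0 of the 8 members and 0 of 13683 genes (0%), with 1 member and 472 genes at an unadjusted p under 0.05, and DESeq2 called 0 members and 0 genes. For Thbs2 the difference of differences was 0.07 ± 0.279 (log2, SE), for Ccdc80 −0.17 ± 0.153 and for Thbs1 −0.41 ± 0.272. The member under 0.05 unadjusted was Fn1, at 0.42 ± 0.162, with KO at 0.719 of WT in number 1, 0.495 in number 2 and 0.584 in number 3. Fn1 was called without WT 2 (0.295) and without WT 3 (0.563), fits in which 20.1% and 4.47% of all genes were called. These fits keep a single WT library in each number class.

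Pearson's r of log2 CPM between pairs of the 8 genes over the 6 libraries is given as a description, since the libraries share genotype and number. Thbs2 and Ccdc80 had r = 0.99, and Thbs2 and Fn1 r = 0.909. Thbs1 and Spp1 had r = 0.971, and Sparc and Thbs3 r = 0.938, while Thbs3 and Spp1 ran opposite at r = −0.973. These pairs did not form separate groups, since Fn1 also ran with Sparc (r = 0.887) and against Thbs4 (r = −0.825), and Thbs2 and Sparc had r = 0.678. Thbs1 and Thbs2, of the same subgroup, had r = −0.342.

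Among 11686 other genes that averaged 2 CPM or more, those most like Thbs2 in pattern over the 6 libraries were Cdh2 (r = 0.999), Shc4 (0.997) and Lipo1 (0.995). The measure ignores the size of a change, and Cdh2 was at 262 ± 10.9 CPM in KO and 304 ± 16.3 CPM in WT (SD, n = 3 each). Most like Ccdc80 were Lipo1 (0.999), Olfm1 (0.997) and Gaa (0.997). Most like Spp1 were Clic5 (0.999), Slc39a6 (0.999) and Lrrfip1 (0.998), and 1450 genes had r over 0.9 with Spp1, against 290 with Thbs2 and 287 with Ccdc80.

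Other matricellular genes went both ways between genotypes. This list and those after it were chosen with earlier results of these libraries known. Their counts, and the adjusted p-values of the genes named from them, are therefore descriptions and support nothing. With the block, 3 of 24 tested genes (of 35 listed) rose and 8 fell, where 3.33% of all tested genes rose and 6.46% fell. Of the 8 that fell, Smoc2, Spock1, Tnn and Igfbp7 were near the floor, with means of at most 0.725 CPM in KO and 1.39 CPM in WT. DESeq2 with the block gave 3 higher and 4 lower, where it called 3.8% of all tested genes higher and 5.47% lower. Without it edgeR called 0, with 6 at an unadjusted p under 0.05, and DESeq2 0. The median log2 difference was −0.33 with the block, beside 0.01 over all tested genes. The list summed to 2314 to 2698 CPM in KO and 2023 to 2047 CPM in WT. On the means, Sparcl1 alone accounted for the higher sum in KO, and the rest of the list was not higher. Sparcl1, the SPARC relative hevin, averaged 1058 ± 501 CPM in KO and 496 ± 255 CPM in WT, a log2 difference of 1.13 ± 0.0712 (SE, adjusted p = 1.68e-05 with the block, edgeR), so it rose where Sparc was lower. Smoc1, which encodes another SPARC-related protein, rose by 0.50 ± 0.0682 (adjusted p = 0.00147 with the block, edgeR), and the third that rose was Fbln1.

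Efemp1, a fibulin gene, averaged 2.28 ± 0.841 CPM in KO and 5.62 ± 1.92 CPM in WT, a log2 difference of −1.30 ± 0.143 (SE, adjusted p = 0.000419 with the block, edgeR). Spock2, which encodes a SPARC-domain proteoglycan, fell by 0.71 on the log2 scale (SE 0.0945, adjusted p = 0.00128 with the block, edgeR). Numbers 2 and 3 alone gave 3 higher and 5 lower, and the fit with the 2 KO libraries summed gave 3 higher and 4 lower. In number 1 against the others, 4 of the 24 were higher and 13 lower, where 28.2% of all tested genes were higher and 29.4% lower.

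Of 21 tested genes for receptors of these proteins (23 listed), 1 rose and 2 fell with the block, a count near the 9.79% of all tested genes called in that fit. Without it edgeR called 0, with 3 at an unadjusted p under 0.05, and DESeq2 2 lower. Itgb5, an integrin subunit that pairs with alpha-v, averaged 76.6 ± 10.9 CPM in KO and 128 ± 19.5 CPM in WT, a log2 difference of −0.74 ± 0.0662 (SE, adjusted p = 0.000131 with the block, edgeR). Itga5, the alpha subunit of the fibronectin receptor, averaged 44.8 ± 1.74 CPM in KO and 59.5 ± 2.49 CPM in WT, a log2 difference of −0.41 ± 0.0711 (SE, adjusted p = 0.00571 with the block, edgeR). Vldlr, a lipoprotein receptor that binds thrombospondin-1, rose by 0.43 ± 0.0905 (adjusted p = 0.0144 with the block, edgeR). The fit with the 2 KO libraries summed gave 0 higher and 2 lower, without the Vldlr call, and numbers 2 and 3 alone gave 2 higher and 1 lower, without the Itga5 call.

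Of 27 tested genes (35 listed) for other proteins with thrombospondin type 1 repeats, 2 rose and 4 fell with the block, where 3.33% of all tested genes rose and 6.46% fell. Without it edgeR called 0, with 3 at an unadjusted p under 0.05, and DESeq2 2 lower. Spon1, which encodes F-spondin, averaged 106 ± 17.4 CPM in KO and 65.7 ± 30.6 CPM in WT, and Adgrb1, an adhesion receptor gene, averaged 9.63 ± 1.05 CPM in KO and 16.9 ± 1.73 CPM in WT. Their log2 differences were 0.76 ± 0.129 and −0.81 ± 0.0934 (SE, adjusted p = 0.00807 and 0.000560 with the block, edgeR). Adamtsl3 and the netrin receptor gene Unc5d fell by 0.85 and 0.91 on the log2 scale (adjusted p = 0.00362 and 0.00971 with the block, edgeR). Numbers 2 and 3 alone gave 1 higher and 2 lower, without the Unc5d call, and the summed fit gave 1 higher and 3 lower.

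Among 16 genes of latent TGF-beta and its response, Tgfbr2, the type II receptor gene, rose by 0.61 ± 0.0715 and Smad7, an inhibitor of the pathway, fell by 0.56 on the log2 scale with the block (SE, adjusted p = 0.000585 and 0.0457, edgeR), where 9.79% of all tested genes were called. The Smad7 call was lost with KO 2 and KO 3 summed, in numbers 2 and 3 alone, with the block without number 1 and in DESeq2 with the block, and Tgfbr2 was called in all 4. Without the block edgeR and DESeq2 called 0, with 0 at an unadjusted p under 0.05 in either tool. Among 11 tested genes of fibronectin and fibrillin fibre assembly, edgeR with the block called 1, Loxl1, a lysyl oxidase gene, where 9.79% of all tested genes were called. Loxl1 averaged 3.36 ± 1.70 CPM in KO and 8.61 ± 4.28 CPM in WT, and it fell by 1.36 on the log2 scale with the block (SE 0.132, adjusted p = 0.000208, edgeR). DESeq2 with the block called Loxl1 lower and Fbn1 higher, where it called 9.27% of all tested genes. Without the block edgeR called 0, with 0 at an unadjusted p under 0.05, and DESeq2 0.

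The median log2 differences with the block were −0.06 for the receptors, −0.09 for the type 1 repeat genes, −0.05 for the TGF-beta genes and −0.10 for fibre assembly, beside 0.01 over all tested genes.

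Markers of other cells that make these proteins were set beside them. Of 10 microglia and macrophage markers, 5 (Aif1, C1qa, C1qb, Ptprc and Tyrobp) had 0 counts in every library, and the list summed to 2.19 to 2.85 CPM in KO and 1.80 to 3.62 CPM in WT. Of 9 meningeal fibroblast markers, Dcn and Foxd1 had 0 counts in every library and 7 of the 9, these included, stayed under 1 CPM in every library. The fibroblast list summed to 40.1 to 65.4 CPM in KO and 34.9 to 46.5 CPM in WT, most of it from Foxc1. Of its 4 tested genes, Foxc1 and Twist1 were higher and Col1a2 lower with the block (edgeR). Foxc1 averaged 47.8 ± 13.9 CPM in KO and 36.7 ± 7.12 CPM in WT, Twist1 0.637 ± 0.144 CPM in KO and 0.0217 ± 0.0377 CPM in WT, and Col1a2 0.191 ± 0.0610 CPM in KO and 0.735 ± 0.311 CPM in WT. Without the block edgeR called 0 of the 4, with 2 at an unadjusted p under 0.05, and DESeq2 called Twist1. Pericyte markers summed to at most 0.849 CPM in KO and 1.49 CPM in WT, and endothelial markers to at most 2.02 CPM in KO and 2.07 CPM in WT.

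Astrocyte markers were higher in level, and some moved with each contrast. The 6 summed to 316 to 885 CPM in KO and 352 to 1067 CPM in WT. With the block 3 of the 6 fell (Aldh1l1, Gfap and Slc1a2) and Aldoc rose, where 9.79% of all tested genes were called. Aldh1l1, a folate enzyme gene of astrocytes, averaged 39.1 ± 2.89 CPM in KO and 159 ± 47.2 CPM in WT. Aldoc, a glycolytic enzyme gene and the most abundant of the 6, averaged 566 ± 271 CPM in KO and 474 ± 250 CPM in WT, a log2 difference of 0.29 ± 0.0758 (SE, adjusted p = 0.0380 with the block, edgeR).

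Aqp4, the water channel gene, averaged 18.9 ± 14.4 CPM in KO and 18.6 ± 14.3 CPM in WT, and S100b averaged 3.47 ± 0.373 CPM in KO and 4.02 ± 0.718 CPM in WT, and neither passed. The Aldoc call was lost with KO 2 and KO 3 summed, without number 1 and in numbers 2 and 3 alone, fits that gave 2 or 3 lower. Without the block edgeR called 0 of the 6, with 2 at an unadjusted p under 0.05, and DESeq2 called Aldh1l1. In number 1, 4 of the 6 were lower, where 29.4% of all tested genes were.

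Of the 8 neural stem cell markers, Hes5, a Notch target gene, was higher and Prom1 lower in KO with the block. Hes5 averaged 209 ± 161 CPM in KO and 168 ± 131 CPM in WT, a log2 difference of 0.32 ± 0.0687 (SE, adjusted p = 0.0161 with the block, edgeR), and in number 1 against the others it differed by −3.71 ± 0.0777 (adjusted p = 6.82e-08, edgeR). The difference of Prom1 between genotypes was −1.35 ± 0.130 (SE, adjusted p = 0.000204 with the block, edgeR). The Hes5 call was lost with KO 2 and KO 3 summed, without number 1 and in numbers 2 and 3 alone, and the Prom1 call was kept in these. Without the block edgeR called 0 of the 8, with 1 at an unadjusted p under 0.05, and DESeq2 called Prom1. In number 1, 1 of the 8 was higher and 5 lower.

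The 7 oligodendrocyte lineage markers summed to 3418 to 3663 CPM in KO and 3512 to 4260 CPM in WT. Nkx2-2, a transcription factor gene of the lineage, averaged 29.5 ± 1.73 CPM in KO and 69.2 ± 2.23 CPM in WT. It was among the 8 genes called without the block, at a log2 difference of −1.23 ± 0.0975 (SE, adjusted p = 0.0316, edgeR), and it was the single marker of the 7 that DESeq2 called without the block. With the block Nkx2-2 and Sox10 (−0.92 ± 0.121) were lower and Pdgfra (0.56 ± 0.0696) was higher in KO, and these 3 calls were kept without number 1, with KO 2 and KO 3 summed and in numbers 2 and 3 alone. In number 1, 5 of the 7 were lower and 0 higher (edgeR).

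Of 6 neuron markers, 5 were tested, and the list summed to 634 to 764 CPM in KO and 547 to 764 CPM in WT, most of it from Map2. With the block Syt1 (−0.93 ± 0.0797, log2 difference and SE) and Stmn2 (−1.38 ± 0.363) were lower in KO. Stmn2 was near the floor, at 0.366 ± 0.258 CPM in KO and 1.00 ± 0.774 CPM in WT, and the groups overlapped. The Stmn2 call was lost with KO 2 and KO 3 summed, in numbers 2 and 3 alone and in DESeq2 with the block. Without the block edgeR called 0 of the 5, with 0 at an unadjusted p under 0.05, and DESeq2 0. In number 1, Map2 was higher and 3 of the 5 were lower. Over all tested genes, 3.33% were higher and 6.46% lower in KO with the block, and 28.2% were higher and 29.4% lower in number 1, which the counts of the marker lists stand beside. The part of these cell types in the levels of Thbs2, Sparc and the other genes was not tested.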

How the data were processed

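The table the authors deposited holds raw counts as whole numbers, 1 row per gene symbol. Per the submitters' processing notes, FastQC, cutadapt, Trim Galore, Bowtie2 and RSEM were used with build mm10. The sources used here do not give versions, annotation, strand setting or how RSEM estimates were rounded. Groups and numbers came from the sample titles. The 9 members and all gene lists were chosen with earlier results of these data known. Positions are from GENCODE vM21 (GRCm38), 1-based.

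Counts were tested in R 4.3.3 with edgeR 4.0.16 (filterByExpr, which kept 13683 genes; TMM scaling; robust quasi-likelihood test, two-sided, Benjamini-Hochberg adjustment, threshold 0.05), and with DESeq2 1.42.0 as an alternative. A standard error is the log2 difference divided by the square root of F. Fits were tested on simulated counts with a fixed dispersion, where the blocked case alone had a number 1 shift across all genes. These simulated counts were simpler than the libraries, and no minimum recovery was required of the interaction fit. Where embryos or cultures are not told apart by the labels, p-values measure only the spread between libraries, which may be technical.

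KO and WT share numbers 1 to 3. The deviations from the group means correlated at 0.854, 0.603 and 0.582 for numbers 1, 2 and 3, all over the limit of 0.1, so blocked values stand beside the others; numbers 2 and 3 were not told apart (0.639 for WT 2 with KO 3). KO 2 and KO 3 were the closest libraries (median chi-square per gene 1.02, where counting alone gives 0.455 and WT 2 with WT 3 gave 5.25), differed by more than counting noise, were entered as 2 samples, and were also summed. Within lists, up to 4 genes called with the block were named by lowest p; genes of similar pattern used log2(CPM + 0.5). Fbln1 and marker genes outside that rule were named after their values were seen.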

Additional observations from a re-analysis of the deposited data

How the results depend on the processing

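Between genotypes, 8 genes and 0 members were called without a block. RLE scaling, upper-quartile scaling (6 genes) and no filter on low counts kept 0 members. DESeq2 called 262 genes and 2 members. Leaving out 1 library gave 0 to 21 genes and 0 members, with 21 genes without WT 1 and 0 genes without any other library (499 to 864 at an unadjusted p under 0.05). With the replicate block, edgeR called 1340 genes and 5 members, DESeq2 1268 and 4, upper-quartile scaling 1310 and 5, and number 1 against the others as the block 1445 and 5. With the block and number 1, 2 or 3 left out in both groups, 1037, 1248 and 1456 genes and 3, 4 and 5 members were called. The fit with KO 2 and KO 3 summed called 688 genes and 4 members, and with numbers 2 and 3 alone, without a block, 743 and 4. Sparc and Spp1 lost the call with the block without number 1.

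The difference between genotypes turned sign for Thbs1 (0.456) and Spp1 (0.376) without WT 1, and for Thbs4 without KO 1 (−0.254) or WT 2 (−0.149). For Thbs3 it turned without KO 2 (−0.0758), KO 3 (−0.099) or WT 1 (−0.16), and with the block without number 3 (−0.00303). With 1 library left out, these differences ranged from −0.691 to 0.456 for Thbs1, −1.12 to 0.376 for Spp1, −0.254 to 0.649 for Thbs4 and −0.16 to 0.424 for Thbs3. Those fits hold number 1 unequally in the genotypes. Thbs2, Ccdc80, Fn1 and Sparc were lower in KO in 20 of 20 fits.

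For number 1 against the others, 5131 to 9264 genes and 7 or 8 members were called with 1 library left out, the fewest genes without WT 1, and 8 members were called under the other 4 alternatives. For the interaction, no filter gave 1 gene, and leaving out 1 library gave 11 (without KO 3) to 2783 genes (without WT 2) and 0 to 1 members. Its sign turned for Thbs2 without KO 2 (−0.0828) and for Thbs4 without KO 3 (0.077) or WT 2 (0.105), within ranges of −0.0828 to 0.224 for Thbs2 and −0.557 to 0.105 for Thbs4. The causes were not tested. Among the genes that turned sign, Thbs4 had 11 to 37 counts per library and Thbs3 had 423 to 1079.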
